A study of Mus musculus with 22 samples.

Results

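The miR-29 family was followed in primary mouse hepatocytes exposed to cyclosporin A (CsA), an immunosuppressant that inhibits calcineurin. Its members were taken by name: mmu-miR-29a-3p, mmu-miR-29b-3p and mmu-miR-29c-3p, the guide strands of the family, written here without the prefix for mouse. They are 3 of the 1247 miRNAs that the arrays measured and 3 of the 289 that were bright enough to test. Hepatocytes of C57Bl6 mice were cultured in medium with serum and received CsA at 10 or 50 µM or the solvent alone, 0.5% DMSO, for 24 or 48 h. The 22 single-colour Agilent miRNA arrays used here comprise 5 CsA and 5 DMSO arrays at 24 h and 6 CsA and 6 DMSO arrays at 48 h. By the labels, the CsA arrays divide into 3 at 10 µM and 2 at 50 µM at 24 h, and 3 at each dose at 48 h. Replicates are called biological and carry an experiment number from 1 to 3, but the labels do not say whether an experiment is 1 animal, a pool or a separate isolation. p-values therefore measure the spread between these samples, part of which may be technical.

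A miRNA is a short RNA that guides Argonaute proteins to messenger RNAs whose 3′ untranslated regions pair with its seed, the bases 2 to 8 from its 5′ end, and the bound message is translated less and degraded. The miR-29 family is best known for repressing messages of the extracellular matrix, among them fibrillar collagens, elastin and fibrillin, and for targeting the DNA methyltransferases. In liver, loss of miR-29 has been described in activated stellate cells, the main matrix-producing cells of fibrosis, and hepatocytes express the family as well. No message was measured in these arrays, so the values below concern the miRNAs alone.

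The mature strands of all 3 members were found in the RefSeq table of the GRCm38.p6 assembly. They are shown because their likeness bears on what an array probe can tell apart. Capitals mark the seed.
miR-29a-3p: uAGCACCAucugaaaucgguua
miR-29b-3p: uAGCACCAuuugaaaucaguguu
miR-29c-3p: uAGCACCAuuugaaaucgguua
All 3 carry the seed AGCACCA, which was found in 3 of the 1679 mature mouse miRNA names of the table and thus in no other. miR-29a-3p and miR-29c-3p are both 22 bases long and identical at 21 positions, with the single substitution C10U, counted from the 5′ end with the miR-29a-3p base first. miR-29b-3p has 23 bases. Against miR-29c-3p it differs at G18A, U21G and A22U, and against miR-29a-3p it also has C10U. G and C make up 40.9% of miR-29a-3p, 34.8% of miR-29b-3p and 36.4% of miR-29c-3p. The sequences of the array probes were not used here, and how much a miR-29a-3p probe binds miR-29c-3p was not tested.

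The family is encoded by 4 hairpins in 2 clusters, whose coordinates are given on GRCm38.p6. The hairpins are shown to place each mature strand, marked by capitals, in its precursor.
Mir29a: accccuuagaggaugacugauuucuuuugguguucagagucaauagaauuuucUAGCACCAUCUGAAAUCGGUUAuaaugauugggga
Mir29b-1: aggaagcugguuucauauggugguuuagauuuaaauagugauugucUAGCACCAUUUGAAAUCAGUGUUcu
Mir29b-2: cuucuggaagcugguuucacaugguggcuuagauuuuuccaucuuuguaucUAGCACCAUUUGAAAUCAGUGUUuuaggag
Mir29c: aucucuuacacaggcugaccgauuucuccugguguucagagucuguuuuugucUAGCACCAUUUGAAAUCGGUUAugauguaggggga
On the minus strand of chromosome 6, Mir29a lies at chr6:31062660-31062747 and Mir29b-1 at chr6:31063023-31063093, with 275 bases between them. On the plus strand of chromosome 1, Mir29b-2 lies at chr1:195037040-195037120 and Mir29c at chr1:195037547-195037634, with 426 bases between them. The chromosome 1 pair falls within the span of the long noncoding RNA gene A330023F24Rik, whereas the chromosome 6 pair overlaps no other gene of the RefSeq table. Both miR-29b hairpins give the same mature miR-29b-3p, so its signal sums transcripts of both clusters, while miR-29a-3p comes from chromosome 6 only and miR-29c-3p from chromosome 1 only.

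The arrays detected between 201 and 400 miRNAs each. Levels are given as log2 of the background-corrected spot intensity divided by the 75th percentile, on the same array, of 281 probes that were well above background throughout. The mean signal of the negative control spots was 215.3 on CsA 10 µM 24 h replicate 3 against a median of 2.95 over all arrays, and the members' values there, 2.08 for miR-29a-3p, -0.72 for miR-29b-3p and -0.27 for miR-29c-3p, lay within the range of the other arrays. The next highest, 33.7, was that of DMSO 48 h replicate 1, whose members read 2.06, -0.65 and -0.55. The sample names in the deposited value table and those of the spot files disagree: 6 of 22 columns hold the array filed under the same name and 16 hold another, of which 8 are CsA arrays of the other dose. Each exchange keeps treatment, time and experiment number, so comparisons of CsA with DMSO over both doses do not depend on it, whereas comparisons between doses are given under both namings. Names of single arrays follow the spot files. Of 7 hepatocyte miRNAs, 7 were measured and 6 were above background on every array, among them miR-122-5p, the most liver-restricted of them.

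Each member was measured by 2 probes of 20 spots, and no spot was saturated. The brighter probe of every member was well above background on all 22 arrays. So were the dimmer probes of miR-29a-3p and miR-29c-3p. The dimmer miR-29b-3p probe was faint, from 13.39 to 48.83, with as few as 0.1 of its spots well above background on an array. On the brighter probe, background-corrected intensities before scaling ran from 892.4 to 2195 (median 1237) for miR-29a-3p. They ran from 102.4 to 363.7 (median 207.8) for miR-29b-3p and from 164.9 to 378.7 (median 225.3) for miR-29c-3p. The median coefficient of variation among the spots of that probe was 6.86%, 6.76% and 6.05% in the same order. Across arrays, the 2 probes of a member correlated at r = 0.97, 0.97 and 0.99, which describes their shared arrays and scaling as well as their target. Brightness depends on the probe, so levels are compared within a member and not between members.

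miR-29a-3p, the member encoded on chromosome 6 alone, stood between 1.69 and 2.44 (log2) over the 22 arrays, with a mean of 2.05 ± 0.22 (SD). In the DMSO arrays at 24 h it read 2.24, 2.02, 2.37, 1.74 and 2.11, and in the CsA arrays at 24 h it read 2.32, 2.04 and 2.08 at the lower dose and 1.71 and 2.19 at the higher dose. At 48 h it read 2.06, 2.44, 2.14, 2.10, 1.85 and 1.88 with DMSO, 2.32, 1.79 and 1.86 with 10 µM and 1.69, 2.02 and 2.06 with 50 µM. All 4 treatment-by-time groups overlapped. The group means were 2.10 ± 0.24 (SD, n = 5) for DMSO and 2.07 ± 0.23 (n = 5) for CsA at 24 h, and 2.08 ± 0.21 (n = 6) and 1.96 ± 0.23 (n = 6) at 48 h. The order from highest to lowest was DMSO 24 h, DMSO 48 h, CsA 24 h and CsA 48 h, and each step in it was smaller than the SD of either neighbour.

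miR-29b-3p, the member with a hairpin in both clusters, varied most, from -1.46 to -0.04 with a mean of -0.64 ± 0.38. With DMSO at 24 h it read -0.88, -0.52, -0.95, -0.04 and -0.21, and with CsA at 24 h it read -0.36, -0.63, -0.72, -0.47 and -0.28. With DMSO at 48 h it read -0.65, -0.21, -0.31, -0.80, -1.46 and -1.08, and with CsA at 48 h -0.24, -1.01, -1.34, -0.63, -0.59 and -0.80. The CsA arrays at 24 h fell inside the range of the DMSO arrays at that time, and the 3 lowest values, -1.46, -1.34 and -1.08, were 2 DMSO arrays and 1 CsA array of experiment 3 at 48 h. Group means were -0.52 ± 0.40 for DMSO and -0.49 ± 0.18 for CsA at 24 h, and -0.75 ± 0.47 and -0.77 ± 0.38 at 48 h. Neighbours in the order CsA 24 h, DMSO 24 h, DMSO 48 h and CsA 48 h lay within each other's SD.

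miR-29c-3p, encoded on chromosome 1 alone, stood between -0.90 and 0.10 with a mean of -0.38 ± 0.25. With DMSO at 24 h it read -0.19, -0.41, -0.30, -0.32 and -0.12, and with CsA at 24 h it read 0.10, -0.26, -0.27, -0.43 and -0.08. With DMSO at 48 h it read -0.55, -0.08, -0.38, -0.56, -0.90 and -0.76, and with CsA at 48 h -0.11, -0.64, -0.68, -0.60, -0.48 and -0.36. The 24 h arrays lay toward the top and the 48 h arrays toward the bottom of the range, with overlap in both treatments. Group means were -0.27 ± 0.11 for DMSO and -0.19 ± 0.20 for CsA at 24 h, and -0.54 ± 0.29 and -0.48 ± 0.22 at 48 h. In the order CsA 24 h, DMSO 24 h, CsA 48 h and DMSO 48 h, the step between times was larger than the SD of the DMSO arrays at 24 h but not that of the CsA arrays at 48 h, and the other steps lay within the SDs. After the group means were removed, the residual SD was 0.23 for miR-29a-3p and 0.22 for miR-29c-3p, below the median of 0.38 over all tested miRNAs, and 0.38 for miR-29b-3p.

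**Figure D1:**
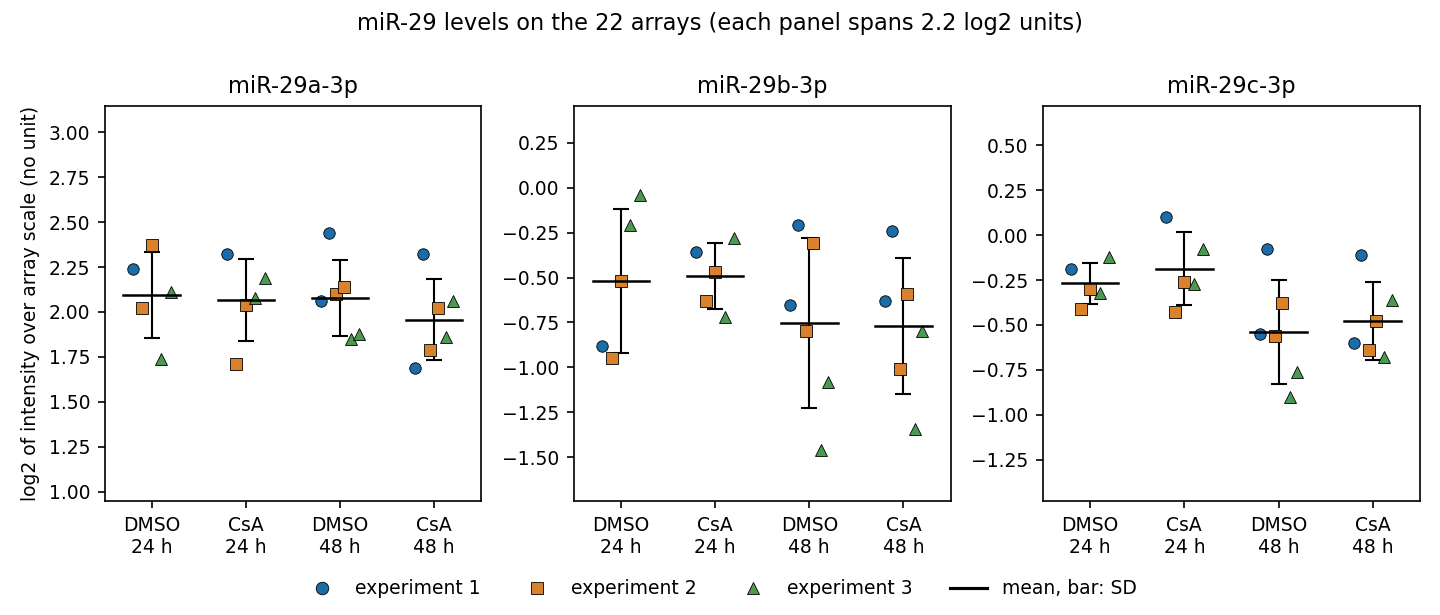
Level of each miR-29 member (log2, relative to the 75th percentile of its array) on each of the 22 arrays, by treatment and time. In each member the DMSO and CsA arrays of a time overlap, and the means differ by less than the SD of the groups.

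CsA was set against DMSO at each time with both doses pooled, which asks whether exposure moved the family at all. None of the 3 members passed at 24 h, where 0% of the 289 tested miRNAs were called in limma's test at an adjusted p under 0.05 and 19 had an unadjusted p under 0.05. The difference of CsA from DMSO at 24 h was -0.03 (log2, SE 0.14) for miR-29a-3p, 0.03 (SE 0.23) for miR-29b-3p and 0.08 (SE 0.14) for miR-29c-3p, each with a limma adjusted p of 1. The 95% intervals reached from 0.79- to 1.21-fold for miR-29a-3p, from 0.73- to 1.43-fold for miR-29b-3p and from 0.86- to 1.30-fold for miR-29c-3p. Changes larger than these lie outside the intervals, while smaller ones were not resolved with 5 arrays a group. The negative-control signal that set CsA 10 µM 24 h replicate 3 apart moved these values little: without that array they were -0.03, 0.09 and 0.10. The CsA and DMSO arrays overlapped in all 3 members, and 0.346% of the tested miRNAs did not overlap. In such bulk cultures, fewer cells of a type and less RNA per cell cannot be told apart.

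At 48 h none of the 3 members passed either, where 1.04% of the tested miRNAs were called (3 of 289) and 81 had an unadjusted p under 0.05. miR-29a-3p differed by -0.12 (SE 0.13; limma adjusted p = 0.579), with an interval from 0.76- to 1.11-fold. For miR-29b-3p the difference was -0.02 (SE 0.21; limma adjusted p = 0.979), and its interval ran from 0.72- to 1.35-fold. miR-29c-3p differed by 0.06 (SE 0.13; limma adjusted p = 0.793), with an interval from 0.87- to 1.26-fold. CsA and DMSO arrays again overlapped in all 3, where 1.38% of the tested miRNAs did not overlap. The median change of all tested miRNAs was 0.10 at 48 h and 0.05 at 24 h. Without DMSO 48 h replicate 1 the differences were -0.13, 0.00 and 0.06. At this time the experiment number paired the arrays, and with it as a replicate block 8.3% of the tested miRNAs were called (24 of 289), again with none of the 3 members (limma adjusted p = 0.507, 0.975 and 0.756 at the same differences). Dividing instead by the 75th percentile over all probes moved the median at 48 h to -0.16. The members moved to -0.55, -0.44 and -0.36, with limma adjusted p-values of 0.134, 0.359 and 0.316. Of all pairs of probe and array, 14.4% were above background, so that percentile rests largely on dim probes. The change of the CsA difference between the times was -0.09 for miR-29a-3p, -0.05 for miR-29b-3p and -0.02 for miR-29c-3p, with limma adjusted p-values of 0.853 or above, where 0% of the tested miRNAs were called.

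**Figure D2:**
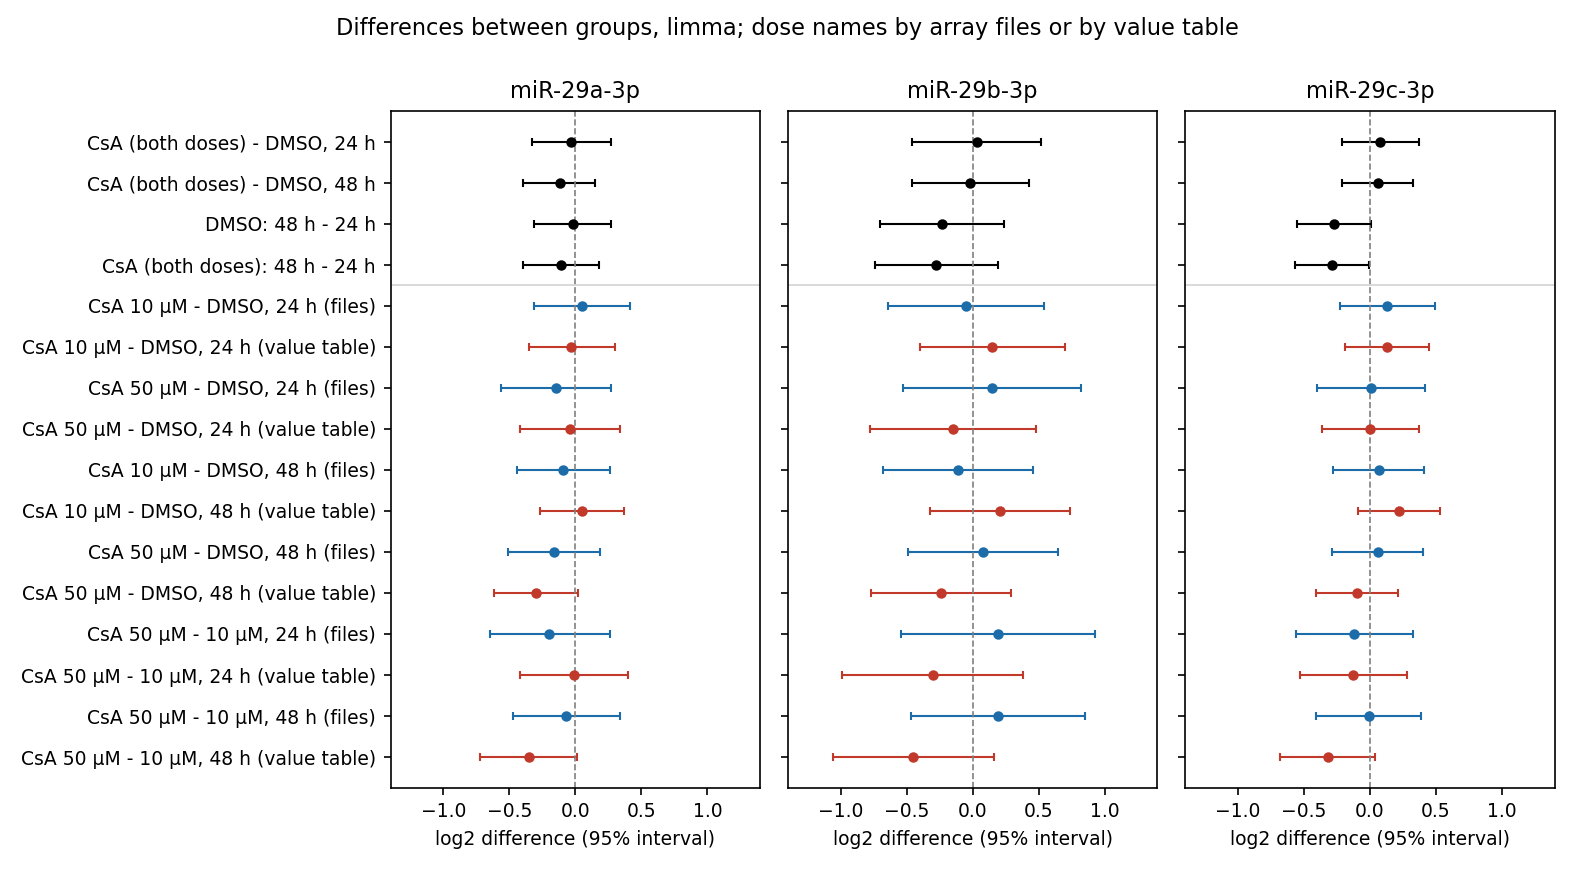
Difference in log2 level, with its 95% interval, of each miR-29 member in each comparison, under the naming of the spot files and of the value table. Intervals of CsA against DMSO with doses pooled all include 0 at both times. Of the intervals shown, only that of miR-29c-3p for 48 against 24 h in CsA leaves out 0.

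Longer culture was compared within each treatment. In DMSO, miR-29c-3p at 48 h differed from 24 h by -0.27 (SE 0.13; limma adjusted p = 0.38), miR-29b-3p differed by -0.23 (SE 0.22; limma adjusted p = 0.875) and miR-29a-3p by -0.02 (limma adjusted p = 0.989). None of the 3 passed, where 0% of the tested miRNAs were called and 38 had an unadjusted p under 0.05. With the experiment as a replicate block 3.46% were called in DMSO, none of them a member, and miR-29c-3p differed by -0.30 (limma adjusted p = 0.19). The likeness of the arrays did not bear out that pairing over time in DMSO. In CsA the differences were -0.29 (SE 0.13; limma adjusted p = 0.288) for miR-29c-3p, -0.28 (SE 0.22; limma adjusted p = 0.48) for miR-29b-3p and -0.11 (limma adjusted p = 0.65) for miR-29a-3p. Again none passed, where 0.346% were called. Arrays of the 2 times overlapped in every member, in DMSO as in CsA, while 0.346% and 2.77% of the tested miRNAs did not overlap. The median over all tested miRNAs was 0.04 in DMSO and 0.16 in CsA. With the percentile over all probes, which rests largely on dim probes, the CsA median moved to -0.08. The CsA differences moved to -0.63, -0.62 and -0.45 for miR-29c-3p, miR-29b-3p and miR-29a-3p, with limma adjusted p-values of 0.274, 0.384 and 0.384. Over the 7 hepatocyte miRNAs the median was -0.27 in DMSO and -0.44 in CsA, and 0 of 7 passed in either. Their summed level ranged from 5.64 to 6.07 (log2) in DMSO and 5.87 to 6.11 in CsA at 24 h, and from 5.48 to 5.82 and 5.54 to 5.88 at 48 h. The endothelial miR-126-3p differed by -0.64 in DMSO (limma adjusted p = 0.307) and -0.49 in CsA (limma adjusted p = 0.332). The part of either in the members' values was not tested.

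Each experiment holds both times and both treatments, so differences over time could be taken within it. In DMSO the pairing over time was not borne out. Deviations from group means correlated at 0.24, 0.20 and 0.44 within experiments and at up to 0.54 between unlike ones. At 24 h, experiment 1 holds 1 DMSO array and 1 CsA array, of 10 µM, while its CsA mean at 48 h covers both doses. Averaged within an experiment, miR-29c-3p was lower at 48 h than at 24 h in all 6 comparisons, by a difference of -0.12, -0.11 and -0.61 in DMSO and -0.45, -0.21 and -0.34 in CsA for experiments 1, 2 and 3. The corresponding differences of miR-29b-3p were 0.45, 0.18 and -1.14 in DMSO and -0.07, -0.25 and -0.57 in CsA. For miR-29a-3p they were 0.01, -0.08 and -0.06 in DMSO and -0.31, 0.03 and -0.17 in CsA. Experiment 3 thus had the largest time difference of miR-29b-3p in both treatments, from -0.31 ± 0.29 (SD) at 24 h to -1.17 ± 0.29 at 48 h over its arrays. The CsA differences of experiment 1 mix dose with time. On its 10 µM arrays alone, 24 h before 48 h, miR-29a-3p read 2.32 and 2.32, miR-29b-3p -0.36 and -0.24, and miR-29c-3p 0.10 and -0.11. The share of all tested miRNAs with 1 sign in all 6 comparisons was not counted. A term for experiment by time, added to limma's fit, gave miR-29b-3p F = 6.43 and an adjusted p of 0.999 (0.00899 unadjusted). By that term 0% of the tested miRNAs were called, and 8 were under 0.05 unadjusted. The experiment term alone did not pass for any member (limma adjusted p = 0.335, 0.513 and 0.151), although 26.6% of the tested miRNAs passed it.

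**Figure D3:**
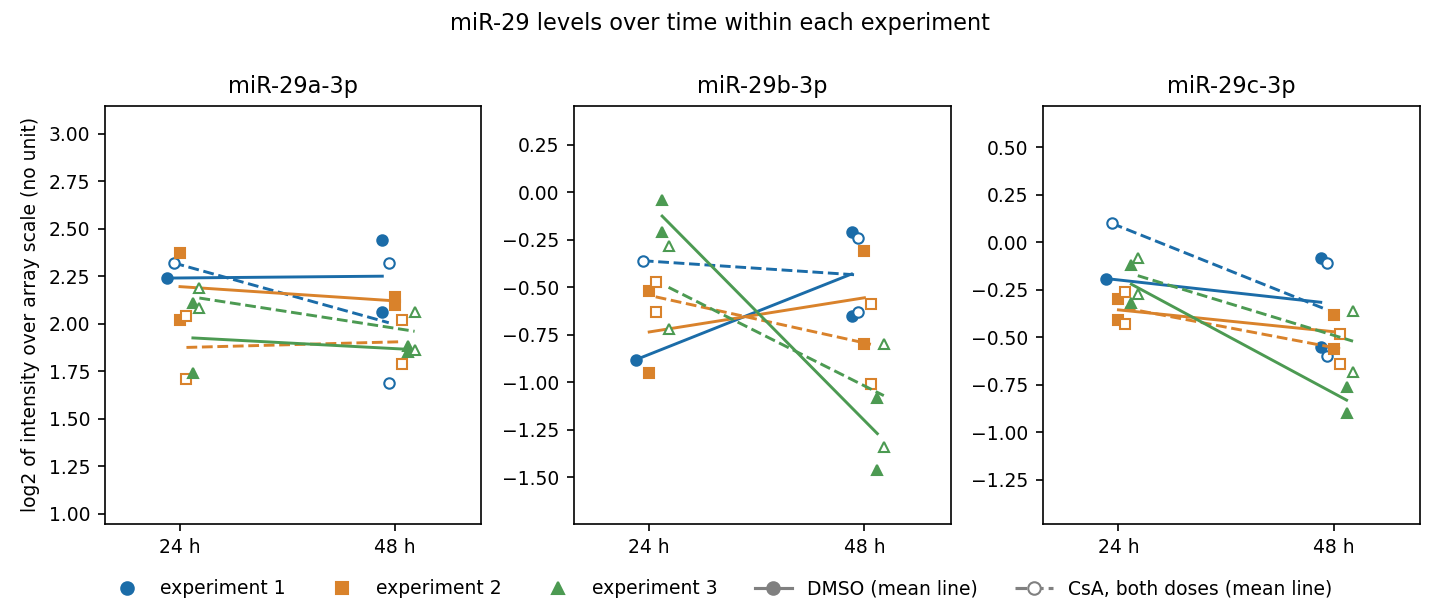
Level of each miR-29 member (log2, relative to the 75th percentile of its array) at 24 and 48 h, by experiment and treatment. The mean of miR-29c-3p lies lower at 48 h in every experiment under both treatments, although single DMSO arrays of experiments 1 and 2 overlap between times, and miR-29b-3p of experiment 3 has the widest gap between times.

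CsA minus DMSO within an experiment had no common sign in most cases. At 24 h it was 0.07, -0.32 and 0.21 for miR-29a-3p, 0.52, 0.19 and -0.38 for miR-29b-3p and 0.29, 0.01 and 0.04 for miR-29c-3p. Experiment 1 had 1 CsA array and 1 DMSO array at that time. At 48 h it was -0.24, -0.22 and 0.09 for miR-29a-3p, -0.00, -0.25 and 0.20 for miR-29b-3p and -0.04, -0.09 and 0.31 for miR-29c-3p. Only miR-29c-3p at 24 h had 1 sign in all 3 experiments, and there experiments 2 and 3 were near 0. The arrays lay on 3 slides, with groups spread unequally: 4 of the 6 CsA arrays at 48 h were on slide 1 and none on slide 2. Within slides, the 48 h minus 24 h difference of miR-29c-3p was -0.49, 0.00 and -0.42 in DMSO on slides 1, 2 and 3, and -0.16 and 0.02 in CsA on slides 1 and 3. With slide as a block, its limma difference was -0.31 in DMSO (adjusted p = 0.401) and -0.14 in CsA (adjusted p = 0.828). The 48 h difference of CsA from DMSO became 0.01 for miR-29a-3p, 0.07 for miR-29b-3p and 0.19 for miR-29c-3p with that block (limma adjusted p = 0.967, 0.942 and 0.506). The slide term did not pass for any member (limma adjusted p = 0.564, 0.827 and 0.601), where 1.38% of the tested miRNAs passed.

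miR-29a-3p and miR-29c-3p, which differ in 1 base, come from separate chromosomes, and their log2 difference on the same array is free of the array's scaling. The size of this difference also holds the brightness of the probes, so only its change between groups is read. In DMSO at 48 h the difference, miR-29a-3p minus miR-29c-3p, was 2.61, 2.52, 2.52, 2.66, 2.75 and 2.64, with a mean of 2.62 ± 0.09 (SD, n = 6). In CsA at 48 h it ran from 2.29 to 2.54, with a mean of 2.43 ± 0.08. Only the highest CsA array and the lowest DMSO arrays overlapped. On the dimmer probe of each member the groups did not overlap, with 1.47 to 1.60 in DMSO (mean 1.56 ± 0.05) and 1.28 to 1.43 in CsA (mean 1.36 ± 0.06). At this time 3.12% of the 288 tested miRNAs other than miR-29a-3p did not overlap in their difference from the dimmer miR-29a-3p probe, and 2.08% in that from the brightest.

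Fitted over all tested miRNAs relative to miR-29a-3p, miR-29c-3p stood 0.19 higher in CsA than in DMSO at 48 h (SE 0.09, interval -0.01 to 0.38; limma adjusted p = 0.227), which did not pass, where 2.78% were called (5.21% with the experiment as a replicate block, where the adjusted p was 0.17). The dimmer probes gave 0.20 (limma adjusted p = 0.259). At 24 h the means were 2.37 ± 0.23 in DMSO, with arrays at 2.44, 2.43, 2.68, 2.06 and 2.24, and 2.26 ± 0.08 in CsA, with none above 2.35. The fitted difference there was 0.11 (limma adjusted p = 0.933), where 0% were called. From 24 to 48 h, miR-29c-3p relative to miR-29a-3p differed by -0.25 in DMSO (SE 0.10, interval -0.45 to -0.05; limma adjusted p = 0.139), where 5.9% were called, and by -0.17 in CsA (limma adjusted p = 0.351), where 0% were called. With the replicate block these were -0.26 (limma adjusted p = 0.103), where 10.1% were called, and -0.18 (limma adjusted p = 0.204), where 2.43% were called. In the values of the value table the DMSO difference was -0.47 (SE 0.14; limma adjusted p = 0.151), where 0% were called. The DMSO difference passed only without DMSO 24 h replicate 4, the array at 2.68, where it was -0.33 with a limma adjusted p of 0.0344. Leaving out each array in turn gave values from -0.33 to -0.17 and adjusted p-values up to 0.476.

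**Figure D4:**
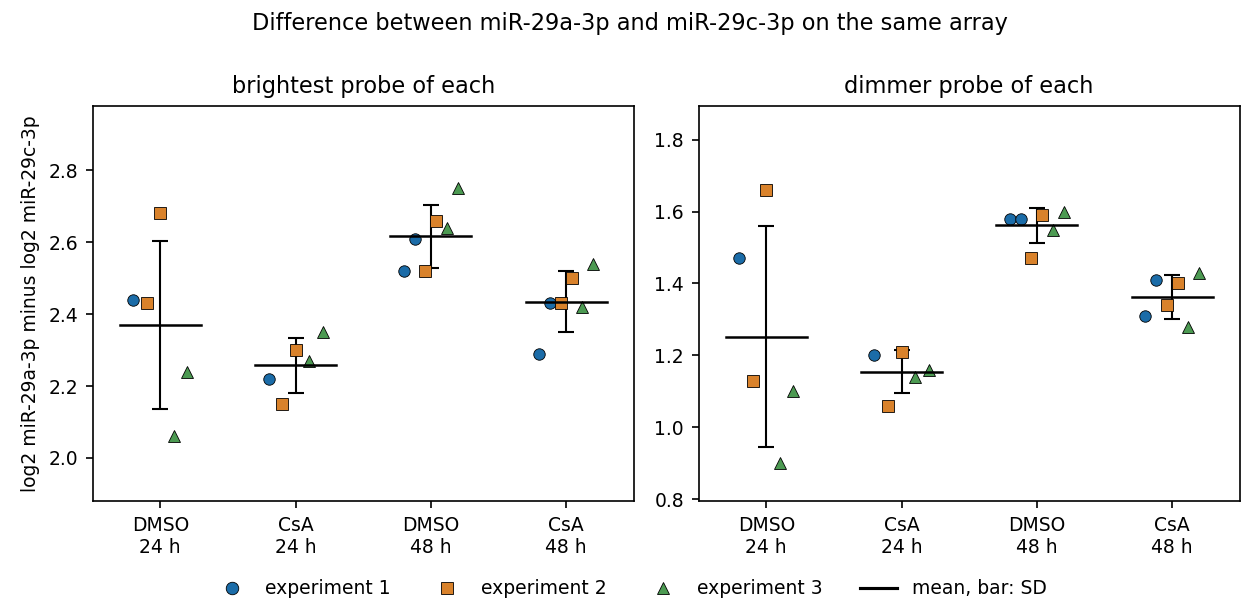
Log2 difference of miR-29a-3p minus miR-29c-3p on each array, by treatment and time, for the brightest and the dimmer probe of each member. At 48 h the CsA arrays lie lower than the DMSO arrays, with overlap on the brightest probes and none on the dimmer probes. Neither difference passed limma's test after adjustment.

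Against miR-29b-3p, the difference of miR-29a-3p was more spread. It averaged 2.62 ± 0.62 in DMSO and 2.56 ± 0.24 in CsA at 24 h, and 2.83 ± 0.30 and 2.72 ± 0.30 at 48 h. Its range in DMSO at 24 h, from 1.78 to 3.33, spanned the means of all 4 groups.

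Doses were compared under both namings. Named by the spot files, 10 µM differed from DMSO at 24 h by 0.05, -0.05 and 0.13 for miR-29a-3p, miR-29b-3p and miR-29c-3p, where 0% of the tested miRNAs were called, and 50 µM by -0.15, 0.15 and 0.01, where 0% were called. At 48 h the differences were -0.09, -0.11 and 0.07 at 10 µM, where 6.23% were called, and -0.16, 0.08 and 0.06 at 50 µM, where 0.346% were called. Between the doses, 50 µM differed from 10 µM by -0.20, 0.19 and -0.12 at 24 h and by -0.07, 0.19 and -0.01 at 48 h, where 0% were called at either time. With the experiment as a replicate block, 10% were called for 10 µM and 0.692% for 50 µM against DMSO at 48 h. None of the 3 members passed in any of these 6 comparisons, with or without that block. Both doses were set against the same DMSO arrays within a time. A tag in the labels goes with dose and also divides the DMSO arrays of each time. By it each dose could have its own solvent arrays. These fits did not use the tag, and the DMSO arrays exchanged between the namings cross it.

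Named by the value table, the same arrays gave another pattern at 48 h, again with none of the 3 members passing in any comparison. There 50 µM differed from DMSO by -0.30 for miR-29a-3p (interval -0.62 to 0.02; limma adjusted p = 0.12), -0.24 for miR-29b-3p (limma adjusted p = 0.457) and -0.10 for miR-29c-3p (limma adjusted p = 0.612), where 37.7% of the tested miRNAs were called. The 10 µM differences were 0.05, 0.21 and 0.22, where 1.04% were called. The 50 µM arrays differed from the 10 µM arrays by -0.35 for miR-29a-3p (interval -0.72 to 0.01; limma adjusted p = 0.132), -0.45 for miR-29b-3p (interval -1.06 to 0.16; limma adjusted p = 0.232) and -0.32 for miR-29c-3p (interval -0.68 to 0.04; limma adjusted p = 0.156), where 28.4% were called. In both of these comparisons most tested miRNAs were not called, and the 3 members were among them. With the value table's own values under these names, 50 µM differed from DMSO by -0.54 for miR-29a-3p (limma adjusted p = 0.0641), -0.58 for miR-29b-3p (limma adjusted p = 0.141) and -0.20 for miR-29c-3p (limma adjusted p = 0.384). From 10 µM it differed there by -0.55, -0.78 and -0.36 (limma adjusted p = 0.128, 0.109 and 0.19).

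Single arrays show the same under the value table's names. At 48 h miR-29a-3p read 1.69, 1.79 and 1.86 with 50 µM and 2.02, 2.06 and 2.32 with 10 µM, without overlap, and miR-29c-3p read -0.60, -0.64 and -0.68 against -0.11, -0.36 and -0.48, also without overlap. miR-29b-3p overlapped, from -1.34 to -0.63 with 50 µM and from -0.80 to -0.24 with 10 µM. Of all tested miRNAs, 54.7% did not overlap in this comparison of 3 with 3 arrays, so non-overlap was the more common outcome. At 24 h the value-table naming gave -0.03, 0.15 and 0.13 for 10 µM against DMSO, where 0% were called, -0.04, -0.15 and 0.00 for 50 µM against DMSO, where 3.81% were called, and -0.01, -0.30 and -0.13 for 50 against 10 µM, where 0.346% were called. In that last comparison miR-29b-3p lay between -0.72 and -0.63 with 50 µM and between -0.47 and -0.28 with 10 µM, without overlap, as did 26% of the tested miRNAs with 2 against 3 arrays, while miR-29a-3p and miR-29c-3p overlapped. Which naming is right cannot be settled from these files.

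Members were also set against each other over the 22 arrays, in 3 pairs. miR-29a-3p and miR-29c-3p correlated at r = 0.71 (permutation p = 0.0002, adjusted 0.0003; rho = 0.75, permutation p = 0.00011), and at 0.67 without the 2 arrays farthest from the median. miR-29b-3p and miR-29c-3p correlated at r = 0.73 (permutation p = 0.00013, adjusted 0.0003; rho = 0.66, permutation p = 0.00094), and at 0.61 without 2 arrays. miR-29a-3p and miR-29b-3p, which share a cluster on chromosome 6, correlated at r = 0.30 (permutation p = 0.177, adjusted 0.18; rho = 0.28, permutation p = 0.211), and at 0.25 without 2 arrays. Within slides 1, 2 and 3, r was 0.59, 0.52 and 0.86 for miR-29a-3p with miR-29c-3p, 0.88, 0.40 and 0.78 for miR-29b-3p with miR-29c-3p, and 0.35, -0.32 and 0.76 for miR-29a-3p with miR-29b-3p. All values on an array share its scaling. The permutations treated the 22 arrays as exchangeable, although groups, experiments and slides link them, so the p-values may be too low.

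The 5 miRNAs with the highest r to each member over the 22 arrays were looked up among 286 candidates, as a description of likeness. For miR-29a-3p they were miR-22-3p (r = 0.95), let-7g-5p (0.93), let-7c-5p (0.90), miR-365-3p (0.89) and miR-107-3p (0.89). For miR-29b-3p they were miR-101b-3p (0.81), miR-101a-3p (0.78), miR-15a-5p (0.73), miR-101c (0.71) and miR-148a-3p (0.67), of which miR-101a-3p was above background on 18 arrays and miR-101c on 10. For miR-29c-3p they were miR-148a-3p (0.93), miR-15a-5p (0.92), miR-26b-5p (0.87), miR-122-3p (0.84) and miR-101b-3p (0.83). Set into the same order, miR-29c-3p ranked 41st and miR-29b-3p 95th in likeness to miR-29a-3p, and miR-29c-3p ranked 3rd in likeness to miR-29b-3p. After the mean of each treatment-by-time group was subtracted, miR-22-3p remained highest for miR-29a-3p (r = 0.96), miR-101b-3p for miR-29b-3p (0.84), and miR-15a-5p was highest for miR-29c-3p (0.95).

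Of these 12 nearest miRNAs, 11 have a sequence in the RefSeq table, and 0 share the seed of the family. The nearest of each member are shown, with miR-148a-3p, to let seeds and composition be compared, again with the seed in capitals.
miR-22-3p: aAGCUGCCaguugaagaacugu
miR-101b-3p: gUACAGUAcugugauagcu
miR-148a-3p: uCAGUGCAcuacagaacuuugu
miR-15a-5p: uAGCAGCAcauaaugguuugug
The nearest were low in G and C, which made up 31.8 to 47.8% of those of miR-29a-3p. For miR-29b-3p and, where a sequence was held, miR-29c-3p it was 33.3 to 42.1%. The median was 54.5% over the 230 tested miRNAs with a sequence. All of the nearest but miR-101a-3p and miR-101c were also above background on every array. Across 227 miRNAs the correlation of GC content with likeness was -0.51 for miR-29a-3p, -0.54 for miR-29b-3p and -0.57 for miR-29c-3p, a description across miRNAs that share arrays and scaling. Of the miRNAs below the median GC content, 70.3, 73.3 and 67.3% had an r above 0 to miR-29a-3p, miR-29b-3p and miR-29c-3p, and of those above it 16.8, 18.7 and 16.8% did. The members' low GC content thus went with the pattern of their likeness, and what part it had was not tested.

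**Figure D5:**
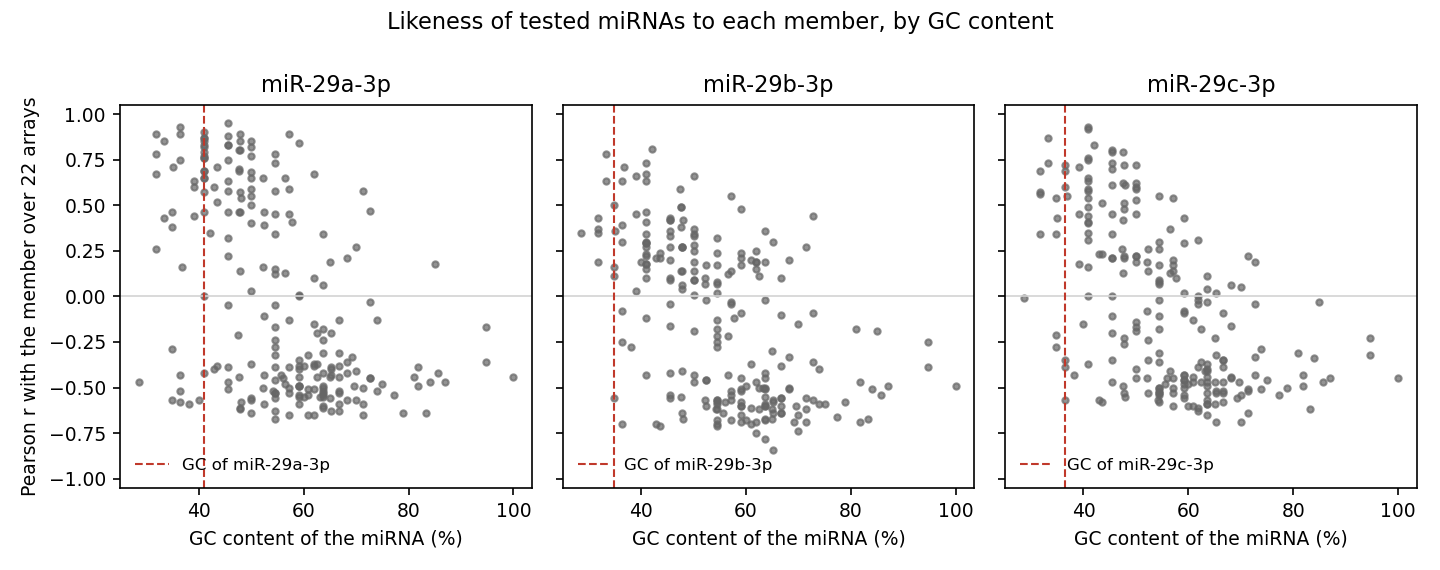
Pearson's r of each tested miRNA with each miR-29 member over the 22 arrays, against the G and C content (percent) of its mature sequence, for 227 miRNAs. Likeness to each member decreases with GC content, with correlations of -0.51, -0.54 and -0.57.

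The passenger arms of the same hairpins, miR-29a-5p, miR-29b-1-5p, miR-29b-2-5p and miR-29c-5p, are the strands mostly discarded when the hairpin is loaded. On the spot files, 0 of 4 were well above background on any array by any of their probes, and the largest share of a probe's spots that was above it was 0.15, for miR-29c-5p. Ratios of guide to passenger strand are therefore not given.

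miRNAs that have been reported to favour fibrosis were listed for comparison. Of 9, 5 were tested, and miR-199a-3p, miR-199a-5p, miR-199b-5p and miR-214-3p, which mark stellate and other mesenchymal cells, were above background on no array. With doses pooled, 0 of 5 passed at 24 h, where 0% of all tested miRNAs did, and 1 of 5 at 48 h, where 1.04% did. That one, miR-221-3p, which targets cell-cycle inhibitors, fell by 0.99 in CsA (SE 0.15; limma adjusted p = 0.000492) and was above background on 19 arrays. Its size depended on how dim signals were treated: it was -0.33 with normexp background correction (limma adjusted p = 0.017), -2.92 in the value table (limma adjusted p = 0.0143) and 0.00 with a floor 4 times higher, which lies above its signal. miR-21a-5p, widely induced in fibrotic tissue, differed by -0.30 (limma adjusted p = 0.328), and miR-155-5p, an inflammatory miRNA, by 0.48 (limma adjusted p = 0.106). The list's median was 0.08 at 24 h and -0.30 at 48 h, beside 0.05 and 0.10 over all tested miRNAs. Under the value table's naming, where 37.7% of all tested miRNAs were called, 3 of the 5 passed with 50 µM against DMSO at 48 h: miR-21a-5p fell by 0.69 (limma adjusted p = 0.00348), miR-221-3p fell by 1.17, and miR-155-5p rose by 0.73 (limma adjusted p = 0.00293).

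Of 9 miRNAs reported to oppose fibrosis beside miR-29, 5 were tested and 0 of 5 passed at either time with doses pooled, beside 0% and 1.04% of all tested miRNAs. Their median was 0.09 at 24 h and -0.15 at 48 h, beside 0.05 and 0.10 over all tested miRNAs. miR-122-5p, which sustains hepatocyte identity and lipid metabolism, differed by 0.10 (limma adjusted p = 0.989) at 24 h and 0.07 (limma adjusted p = 0.667) at 48 h. Under the value table's naming, miR-19b-3p of this list fell by 1.11 between 10 and 50 µM at 48 h (limma adjusted p = 0.0281), the only one of the 5 to pass there, where 28.4% of all tested miRNAs passed.

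miR-148a-3p, miR-148b-3p and miR-152-3p share a seed with each other and, like miR-29, have been described as repressing DNA methyltransferases. All 3 were tested and 0 of 3 passed with doses pooled at either time, beside 0% and 1.04% of all tested miRNAs. At 48 h they differed by 0.20, -0.57 and -0.39 from DMSO, with limma adjusted p-values of 0.507, 0.093 and 0.158. Under the value table's naming, miR-148b-3p fell by 0.81 (limma adjusted p = 0.00642) and miR-152-3p by 0.61 (limma adjusted p = 0.0128) with 50 µM against DMSO at 48 h, where 37.7% of all tested miRNAs were called, and miR-148a-3p fell by 0.59 between 10 and 50 µM at 48 h (limma adjusted p = 0.0389), where 28.4% were called.

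Most markers of other liver cells were not above background on any array, and 3 of them were bright enough to test. Of 6 stellate and mesenchymal miRNAs, 5 were above background on no array, and the exception was miR-145a-5p, on 12 arrays. Their summed level ranged from -1.82 to -1.58 (log2) in DMSO and -1.82 to -1.71 in CsA at 24 h, and from -1.82 to -1.47 and -1.82 to -1.54 at 48 h. The lower end, -1.82, is the sum with all 6 at the set floor and not a measured level. Of the endothelial miRNAs, miR-126-3p was above background on 20 arrays, with intensities up to 66.9, and miR-126-5p on none. The list's summed level ranged from -2.78 to -2.14 and -2.80 to -1.84 at 24 h, and from -3.30 to -2.30 and -3.0 to -2.38 at 48 h, DMSO before CsA. Of 5 leukocyte and macrophage miRNAs on the array, only miR-155-5p, which hepatocytes can also express, was above background, on 16 arrays. The erythroid miRNAs and the miR-200 family were above background on no array.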

How the data were processed

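Total RNA of 22 cultures was hybridised to single-colour Agilent arrays on 3 slides. The deposited spot files hold intensity values of each spot, corrected for background by the scanner software (per the file headers, Feature Extraction 10.7.3.1). A deposited table of log2 values comes from the authors' own processing (R 2.15.2 by the submitters' processing notes). Its floor and its column medians are all -1, and how it was scaled between arrays is not given in the sources read. By matching ranks of its columns to the spot files, each column was assigned to 1 array. One label field names HepG2 cells, while all others name primary mouse hepatocytes. The design speaks of 24 arrays, and the other 2 were not analysed here.

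Control and outlier spots were left out, spots of a probe averaged, scaled to the 75th percentile of 281 probes above background on all arrays, floored at 0.0471 and taken to log2. The probe with the highest mean level after flooring stood for a miRNA, and the first listed where all probes were at the floor. Another probe alone would have passed the filter for 2 untested miRNAs. A miRNA was tested where at least 0.5 of its spots were well above background on at least 3 arrays (289 of 1247). Groups of treatment by time, and separately of dose by time, were fitted with limma 3.58.1 in R 4.3.3. p-values were adjusted by Benjamini-Hochberg over all 289, and "called" or "passed" means an adjusted p under 0.05. Deviations of same-experiment arrays from their group means correlated at 0.71, 0.39 and 0.77 between CsA and DMSO at 48 h, at 0.24, 0.20 and 0.44 between times in DMSO and at 0.50, 0.18 and 0.64 in CsA. The experiment number, from the labels, was therefore taken to pair CsA with DMSO at 48 h and the times in CsA. It was not taken to pair CsA and DMSO at 24 h (0.39, 0.05 and 0.30). Between unlike experiments the highest correlation was 0.19 at 48 h and 0.15 between times in CsA. It was 0.54 between times in DMSO and 0.44 between CsA and DMSO at 24 h. For DMSO over time these values therefore do not bear out the pairing, and fits with the block are given there only as an alternative. The fit without a block stayed the main one. The code was tested on simulated data. Number of arrays limits the precision. Correlations used 100000 permutations, two-sided.

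The members and the lists were chosen with earlier results of these data known. Named miRNAs are the members, their passenger arms, up to 6 of the fibrosis lists, the DNA methyltransferase list, miR-122-5p and the 5 nearest of each member. Sequences and coordinates are RefSeq's, and 1017 of 1247 miRNAs matched by name. Alternatives covered scaling, background, the value table, the filter, the floor, the probe, experiment and slide as blocks, naming and leaving out each array. Chosen after seeing the data were the dimmer probes, differences from miR-29a-3p, batch terms, both blocks together, and the table's names with its values or with the block.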

Additional observations from a re-analysis of the deposited data

Results flagged for a closer look

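Passenger strand miR-29c-5p had a signal in the deposited value table that the comparisons do not use. Its highest CsA value there, 2.5 (log2) on CsA 10 µM 24 h replicate 1, was above the highest DMSO value, 2.26. It exceeded the table's minimum of -1 in 5 of 22 columns, DMSO and CsA, whereas the other 3 passenger arms did so in 0. By the spot files neither of its 2 probes was well above background on any array, where at most 0.15 of a probe's spots were. No array of a member lay far enough from its group to stand out among 20 sets of values (each member and 2 differences between members, in each of 4 groups), by the gap of the extreme array over the group's range.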

How the results depend on the processing

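No member's own level was called in any of 780 values over the comparisons and alternatives counted. Among these the lowest adjusted p in limma was 0.0608, for miR-29c-3p at 48 against 24 h in CsA with doses pooled. An unadjusted p under 0.05 was found for 25 values. Not counted are differences from miR-29a-3p, of which 1 passed without DMSO 24 h replicate 4. Fits that left out single arrays under the value table's names are not counted either. The sign differed from the reported one in 135 of the 780 values, none larger than 0.2 as reported. One of these had an unadjusted p under 0.05: miR-29b-3p, 50 against 10 µM at 48 h, was -0.78 with the value table's names and values (adjusted p = 0.109) against 0.19.

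Counts of called miRNAs moved more. CsA against DMSO at 48 h with doses pooled had 3 called, but 7 with the percentile over all probes, 5 with quantile scaling, 10 with the value table, and 1 without the filter on dim probes, with the slide block or with both blocks. CsA at 48 against 24 h had 1, but 2 with the value table or 4 times the floor and 0 with quantile scaling, normexp, no filter, the slide block or both blocks. At 24 h, 50 µM against DMSO had 0, but 1 with the higher floor, 11 with the value table's names and 8 with its values too. For 10 µM against DMSO at 48 h the 18 became 0 with the percentile over all probes or both blocks. They became 1 with quantile scaling or normexp, 2 with the value table and 6 with the higher floor. With the slide block or the table's names they became 3 (0 with its values too). Without the filter they became 978, with a median change of 0.00. Fits without the filter tested 1247 miRNAs, against 289 in the main fit, so their counts are not directly comparable. For 50 µM against DMSO at 48 h the 1 became 0 with quantile scaling, normexp, no filter, the higher floor or both blocks, 12 with the value table's values, 109 with its names and 104 with both. For 50 against 10 µM, the 0 became 1 at 24 h with the higher floor or the table's names, and at 48 h 82 with its names and 69 with its names and values. Leaving out each array gave 0 to 4 for CsA against DMSO at 24 h and 1 to 61 at 48 h, 0 to 4 for DMSO over time, 0 to 1 for CsA over time and, by dose, 0 to 88 at most. The causes were not tested.

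With the experiment as a replicate block, 1 miRNA was called for CsA against DMSO at 24 h and 24 at 48 h, 10 for DMSO over time (3 with the slide too), 1 for 10 µM at 24 h, 29 for 10 µM and 2 for 50 µM at 48 h. With the table's names and the block these were 17 for 50 µM at 24 h, 3 for 10 µM at 48 h, and 1 and 117 between doses at 24 and 48 h, and 50 µM against DMSO at 48 h had 53.6% of the tested miRNAs called. No member was called under it, and miR-29c-3p differed by -0.32 (adjusted p = 0.122) from 24 to 48 h in CsA.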
